A study of Saccharomyces cerevisiae with 9 samples.

Results

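The sulfate assimilation pathway of budding yeast was examined in cells exposed to CdSe/ZnS or InP/ZnS quantum dots, through 10 genes: the sulfate permease genes SUL1 and SUL2, the sulfate activation and reduction genes MET3, MET14 and MET16, the sulfite reductase genes MET5 and MET10, the siroheme genes MET1 and MET8, and the sulfonate dioxygenase gene JLP1. The genes were taken by name from the gene column of the authors' deposited tables. No cut on their values was applied, but the list was drawn up with earlier results of these data known. All 10 were found and tested in each table, among 7091 entries in either table, and each stood alone at its locus. By the authors' q, the pathway split with both quantum dots: the permeases SUL1 and SUL2 and the sulfite reductase gene MET10 rose, while JLP1, MET8 and MET14 fell. By that q, 9.59% of all tested genes rose and 43.6% fell with CdSe/ZnS, and 23.9% and 17.2% with InP/ZnS. The same 6 genes also passed a stricter normal test with CdSe/ZnS, where 4.43% of all genes were higher and 29.6% lower. With InP/ZnS only JLP1 and MET8 passed it, where 9.3% were higher and 6.55% lower. The change with CdSe/ZnS also went with coding length (Spearman correlation 0.79 over the 10 genes and 0.34 over all tested genes with a length).

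Saccharomyces cerevisiae labelled S288C, the reference laboratory strain, was grown in SD-Glucose medium to an optical density of 0.3 to 0.6 and held for 6 h at 30 °C with shaking at 220 rpm. The 3 groups were cells with no agent, cells with CdSe/ZnS quantum dots (10 µg/mL in the design text) and cells with InP/ZnS quantum dots (100 µg/mL in the design text), each with 3 libraries. The treatment text attached to every sample gives only InP/ZnS, at 100 mg/mL, so the unit of that dose is uncertain. A quantum dot is a semiconductor nanocrystal; here a zinc sulfide shell surrounds a core of cadmium selenide or indium phosphide, so both particles carry zinc and sulfur. The labels do not say whether the 3 libraries of a group came from separate cultures, so the authors' p and q reflect variation among these libraries alone, whether biological or technical. S288C is known as a strain of mating type alpha, yet in the authors' deposited table the a-factor gene MFA1 stood at 18407 FPKM and the alpha-factor gene MF(ALPHA)1 at 0.848 FPKM in untreated cells. The other a-specific genes there were MFA2 at 22154.5, AGA2 at 363, STE2 at 102, BAR1 at 26.0 and STE6 at 17.5 FPKM. The other alpha-specific genes were AFB1 at 73.0, MF(ALPHA)2 at 45.9, SAG1 at 28.3 and STE3 at 3.76 FPKM. The sets thus overlap in level, and the mating type was not tested.

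Each table holds 1 FPKM value (fragments per kilobase of transcript, scaled to the size of the library) for a gene in a condition, pooled over its libraries, with the authors' log2 fold change, p and q. No value per library was used here, so the spread between libraries and the depth are unknown, and the standard error (SE) given with a fold change is the one implied by the authors' test statistic. In this report a gene rose or fell where the authors' q was under 0.05. The median log2 fold change was -0.35 over 6321 tested genes with CdSe/ZnS and 0.07 over 6367 with InP/ZnS. Values relative to that median are given beside those as deposited. Both tables use the same labelled untreated condition, but their untreated FPKM differ: over 6290 genes tested in both, the InP/ZnS table was 1.14-fold higher at the median, so levels are compared within a table.

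Yeast takes up sulfate through the permeases Sul1 and Sul2. ATP sulfurylase (Met3) and adenylylsulfate kinase (Met14) activate it, the reductase Met16 makes sulfite, and sulfite reductase makes sulfide, the sulfur that enters homocysteine and from there methionine and cysteine. Sulfite reductase joins the Met10 and Met5 subunits and needs siroheme, which Met1 and Met8 make from the heme pathway. The transcription factor Met4 switches these genes on when methionine and cysteine run low; it binds DNA only through partners, chiefly Cbf1 at the E-box CACGTG and Met31 or Met32 at elements around AAACTGTG. Cadmium is known to activate Met4 in yeast, and sulfur is then directed to glutathione.

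The 300 bases beyond the 100 next to each start codon were read from the R64 genome, so that most of the untranslated leader is left out. CACGTG, which reads the same on both strands, stood in 8 of the 10 windows, against 4.55% of 6001 protein-coding genes. SUL1 and JLP1 were those without it. AAACTGTG, searched on both strands, stood in the windows of MET3 and MET1 and in 1.68% of all, and CTGTGGC, a shorter form that can overlap it, in those of SUL2, MET3 and JLP1 and in 2.42% of all. A match is a string of letters in this window and does not show that a factor binds there. The 12 copies of CACGTG are shown because this string stood in more of the 10 windows than the others searched. Each is printed 5′ to 3′ on the strand of its gene, with the E-box in capitals and 12 bases to either side, from R64.
SUL2 (chrXII:323198-323227, plus strand): tggagtaaatgtCACGTGccactgtggccg
SUL2 (chrXII:323224-323253, plus strand): gccgtgtcaggtCACGTGaagagagaaatt
MET3 (chrX:455850-455879, plus strand): agaaaaaaaggtCACGTGaccagaaaagtc
MET3 (chrX:455867-455896, plus strand): gaccagaaaagtCACGTGtaattttgtaac
MET14 (chrXI:439596-439625, minus strand): tgccactaatttCACGTGatcaatatattt
MET16 (chrXVI:877793-877822, minus strand): ttatcatcatttCACGTGgctagtaaaaga
MET5 (chrX:683601-683630, minus strand): atataatttgtcCACGTGatatttcacaga
MET5 (chrX:683572-683601, minus strand): aatgaatttcatCACGTGcgtattatctct
MET10 (chrVI:213051-213080, plus strand): gatataccacacCACGTGagcttatagaag
MET10 (chrVI:213069-213098, plus strand): agcttatagaagCACGTGaccacaattcac
MET1 (chrXI:571332-571361, plus strand): aatgccattatgCACGTGacattacaaatt
MET8 (chrII:650147-650176, plus strand): gcgtcataatttCACGTGttataatagcca

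All 12 copies had a T before or an A after the E-box, so that TCACGTG is read on one strand or the other, as did 73.9% of 303 copies in all promoter windows. The distance from the E-box to the start codon ran from 178 bases in MET16 to 377 bases in MET3, counted from its first base. The genes with the E-box moved in both directions, as the values below show.

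The 4 genes that rose with CdSe/ZnS, of 10, were SUL1, SUL2, MET5 and MET10, and the 3 that fell were MET14, MET8 and JLP1. MET3, MET16 and MET1 did not pass. Of all tested genes 9.59% rose and 43.6% fell. The median log2 fold change of the 10 genes was 0.24, or 0.59 relative to all genes. With InP/ZnS, SUL1, SUL2, MET10 and MET1 rose and MET3, MET14, MET8 and JLP1 fell, 4 in each direction, where 23.9% of all genes rose and 17.2% fell; their median was 0.17, or 0.11 relative to all genes.

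The calls with CdSe/ZnS held in a stricter test and most of those with InP/ZnS did not. In a 2-sided normal test on the authors' statistic (the fold change over its implied SE) with Benjamini-Hochberg adjustment over all genes, the same 4 rose and 3 fell with CdSe/ZnS, where 4.43% and 29.6% of all genes did. With InP/ZnS that test left MET8 and JLP1 lower and 0 higher, where 6.55% of all genes were lower and 9.3% higher; at an unadjusted p under 0.05 it had 2 higher and 2 lower. Taken relative to the median of all genes, 5 were higher and 3 lower with CdSe/ZnS, MET1 being gained, where 11.9% and 13.6% of all genes were. The same step gave 0 higher and 2 lower with InP/ZnS, again MET8 and JLP1, where 7.87% and 8.32% of all genes were; at an unadjusted p under 0.05 it had 1 higher and 3 lower.

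**Figure D1:**
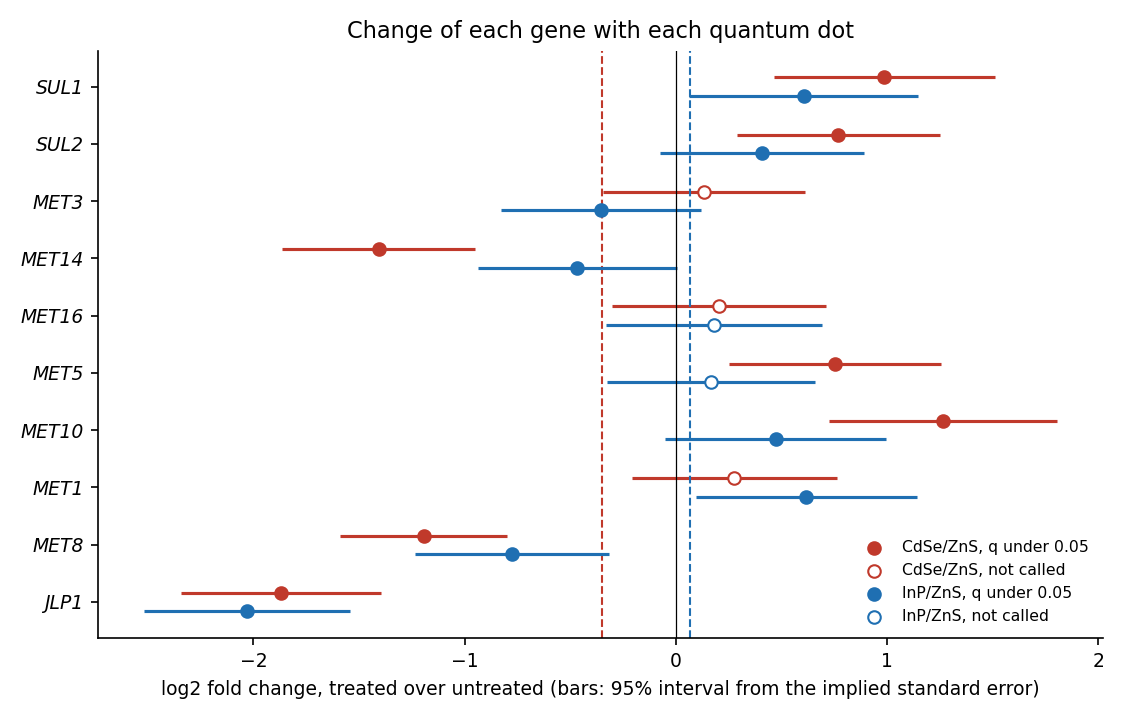
The log2 fold change of each gene, treated over untreated, is shown on the x axis for CdSe/ZnS (red) and InP/ZnS (blue), with bars for the 95% interval from the implied standard error, filled points for q under 0.05 and dashed lines at the median of all tested genes. SUL1 and SUL2 lie to the right of 0 with both quantum dots and MET14, MET8 and JLP1 to the left; MET10 with CdSe/ZnS is farthest right at 1.27, and JLP1 with InP/ZnS farthest left at -2.03.

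The permease genes rose with both quantum dots. SUL1 (YBR294W, chromosome II, 789235 to 791814, plus strand) went from 414 FPKM untreated to 821 with CdSe/ZnS and, in the other table, from 480 to 730 with InP/ZnS in the authors' deposited tables. That is a 1.98-fold rise with CdSe/ZnS (log2 0.99, SE 0.27, q = 0.000173), or 1.34 on the log2 scale relative to all genes. With InP/ZnS the rise was 1.52-fold (log2 0.61, SE 0.28, q = 0.00127 in the authors' deposited table), with an adjusted p of 0.124 in the normal test. SUL1 held more RNA per length than SUL2 in each condition, by 2.05-fold in untreated cells and 2.39-fold with CdSe/ZnS, and by 2.04-fold and 2.34-fold in the InP/ZnS table.

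SUL2 (YLR092W, chromosome XII, 323544 to 326225, plus strand) went from 201 to 343 FPKM with CdSe/ZnS and from 236 to 312 with InP/ZnS in the authors' deposited tables. The rise was 1.70-fold with CdSe/ZnS (log2 0.77, SE 0.25, q = 0.000173) and 1.33-fold with InP/ZnS (log2 0.41, SE 0.25, q = 0.0177) in the authors' deposited tables. The second did not pass the normal test on the authors' statistic (adjusted p = 0.290). The permease genes thus moved the same way, although the window of SUL2 holds the E-box at 2 places and that of SUL1 at none; the window of SUL1 is printed here, 5′ to 3′, as the case without a match to any of the 3 strings.
SUL1 (chrII:788835-789134, plus strand): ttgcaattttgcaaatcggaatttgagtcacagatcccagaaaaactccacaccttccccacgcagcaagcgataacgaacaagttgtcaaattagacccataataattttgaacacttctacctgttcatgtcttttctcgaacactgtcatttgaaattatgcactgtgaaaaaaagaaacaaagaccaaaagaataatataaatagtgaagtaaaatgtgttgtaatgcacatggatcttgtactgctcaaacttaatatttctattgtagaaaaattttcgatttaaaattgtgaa

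The 3 genes that turn sulfate into sulfite did not move together. MET3 (YJR010W, chromosome X, 456239 to 457774, plus strand), for ATP sulfurylase, stood at 250 FPKM untreated and 274 with CdSe/ZnS, and at 292 and 228 with InP/ZnS, in the authors' deposited tables. Its log2 fold change of 0.13 (SE 0.24, q = 0.524) with CdSe/ZnS did not pass, and it fell by 0.36 (SE 0.24, q = 0.0333) (log2) with InP/ZnS in the authors' deposited tables. The fall did not pass the normal test, with an adjusted p of 0.363. This gene, the entry step of the pathway, has 2 E-boxes and 1 AAACTGTG match in its window.

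MET14 (YKL001C, chromosome XI, 438777 to 439385, minus strand), for the kinase that makes the activated sulfate used by Met16, fell from 583 to 220 FPKM with CdSe/ZnS and from 599 to 433 with InP/ZnS in the authors' deposited tables. The log2 fold change with CdSe/ZnS was -1.41 (SE 0.23, q = 0.000173) in the authors' deposited table, and relative to all genes the value was -1.06. With InP/ZnS the log2 fold change was -0.47 (SE 0.24, q = 0.00216) in the authors' deposited table, with an adjusted p of 0.185 in the normal test. In untreated cells MET14 stood at 2.33-fold the level of MET3, and with CdSe/ZnS at 0.803-fold; in the InP/ZnS table the ratios were 2.05 and 1.90.

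MET16 (YPR167C, chromosome XVI, 876847 to 877632, minus strand), for the reductase that yields sulfite, had the highest level of the 10 genes in every condition. It stood at 1125 FPKM untreated and 1297 with CdSe/ZnS, and at 1295 and 1467 with InP/ZnS, in the authors' deposited tables. Neither difference passed in the authors' deposited tables (log2 0.20, SE 0.26, q = 0.318 with CdSe/ZnS; log2 0.18, SE 0.26, q = 0.355 with InP/ZnS). The ratio of MET16 to MET14 went from 1.93 to 5.90 with CdSe/ZnS and from 2.16 to 3.39 with InP/ZnS.

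The sulfite reductase genes rose together with CdSe/ZnS. MET10 (YFR030W, chromosome VI, 213312 to 216419, plus strand), the alpha subunit, went from 287 to 690 FPKM with CdSe/ZnS and from 330 to 458 with InP/ZnS in the authors' deposited tables. Its 2.40-fold rise with CdSe/ZnS (log2 1.27, SE 0.28, q = 0.000173 in the authors' deposited table) was the largest increase of the 10 genes, and relative to all genes it was 1.61 on the log2 scale. With InP/ZnS the rise was 1.39-fold (log2 0.47, SE 0.27, q = 0.00725 in the authors' deposited table), with an adjusted p of 0.242 in the normal test.

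MET5 (YJR137C, chromosome X, 678957 to 683285, minus strand), the beta subunit, stood at 103 FPKM untreated and 174 with CdSe/ZnS, and at 116 and 131 with InP/ZnS, in the authors' deposited tables. It rose 1.69-fold with CdSe/ZnS (log2 0.75, SE 0.26, q = 0.000173) and did not pass with InP/ZnS (log2 0.17, SE 0.25, q = 0.377) in the authors' deposited tables. MET10 was above MET5 per length in every condition, at a ratio of 2.78 untreated and 3.96 with CdSe/ZnS, and of 2.83 and 3.51 in the InP/ZnS table. MET5 has the longest coding sequence of the 10 genes.

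The genes of siroheme, the cofactor of sulfite reductase, went apart. MET1 (YKR069W, chromosome XI, 571612 to 573393, plus strand), the methyltransferase that starts siroheme synthesis, went from 287 to 348 FPKM with CdSe/ZnS and from 325 to 499 with InP/ZnS in the authors' deposited tables. It did not pass with CdSe/ZnS (log2 0.28, SE 0.25, q = 0.148), although relative to all genes it stood at 0.62 and passed the normal test (adjusted p = 0.0473); it rose 1.53-fold with InP/ZnS (log2 0.62, SE 0.27, q = 0.000681, in the authors' deposited table). That rise did not pass the normal test, with an adjusted p of 0.0986.

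MET8 (YBR213W, chromosome II, 650368 to 651192, plus strand), which completes siroheme by oxidation and insertion of iron, fell from 208 to 91.0 FPKM with CdSe/ZnS and from 250 to 146 with InP/ZnS in the authors' deposited tables. The log2 fold change was -1.19 with CdSe/ZnS (SE 0.20, q = 0.000173) and -0.78 with InP/ZnS (SE 0.23, q = 0.000252) in the authors' deposited tables. Relative to all genes the values were -0.85 and -0.84, and both passed the normal test there (adjusted p of 0.000337 and 0.0040). The ratio of MET1 to MET8 went from 1.38 to 3.83 with CdSe/ZnS and from 1.30 to 3.42 with InP/ZnS.

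JLP1 had the largest change of the 10 genes with either quantum dot as deposited; relative to all genes, MET10 changed more with CdSe/ZnS (1.61 against -1.52). Its product releases sulfite from sulfonates, an alternative to sulfate as a source of sulfur. JLP1 (YLL057C, chromosome XII, 25756 to 26994, minus strand) fell from 518 to 142 FPKM with CdSe/ZnS and from 609 to 149 with InP/ZnS in the authors' deposited tables. The log2 fold change was -1.87 with CdSe/ZnS (SE 0.24, q = 0.000173) and -2.03 with InP/ZnS (SE 0.25, q = 0.000252) in the authors' deposited tables, and relative to all genes -1.52 and -2.10. In untreated cells JLP1 was above 92.5% of all tested genes in level, and with InP/ZnS above 75.1%. Its window is printed 5′ to 3′ beside those of MET14, which fell less, and MET10, which rose most with CdSe/ZnS. In the MET10 window 62 bases lie in the neighbouring gene PTR3. Capitals mark CACGTG in MET14 and MET10, and in JLP1 the reverse complement of CTGTGGC.
JLP1 (chrXII:27095-27394, minus strand): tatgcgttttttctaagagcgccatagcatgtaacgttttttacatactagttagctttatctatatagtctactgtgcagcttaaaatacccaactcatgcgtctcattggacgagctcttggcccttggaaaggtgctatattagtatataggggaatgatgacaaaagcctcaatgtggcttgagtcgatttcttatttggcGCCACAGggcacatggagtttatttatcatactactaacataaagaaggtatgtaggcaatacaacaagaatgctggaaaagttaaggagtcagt
MET14 (chrXI:439486-439785, minus strand): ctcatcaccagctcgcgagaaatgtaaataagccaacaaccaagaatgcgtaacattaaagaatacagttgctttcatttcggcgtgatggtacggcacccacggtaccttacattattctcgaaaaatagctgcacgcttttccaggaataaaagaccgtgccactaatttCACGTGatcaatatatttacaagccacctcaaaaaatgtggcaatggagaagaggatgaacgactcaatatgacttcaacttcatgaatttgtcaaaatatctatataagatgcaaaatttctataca
MET10 (chrVI:212912-213211, plus strand): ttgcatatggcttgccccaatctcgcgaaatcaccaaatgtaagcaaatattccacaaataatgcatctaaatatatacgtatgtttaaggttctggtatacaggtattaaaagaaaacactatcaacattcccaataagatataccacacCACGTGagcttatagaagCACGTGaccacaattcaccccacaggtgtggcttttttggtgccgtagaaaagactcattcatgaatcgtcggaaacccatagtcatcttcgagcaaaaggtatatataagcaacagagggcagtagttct

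**Figure D2:**
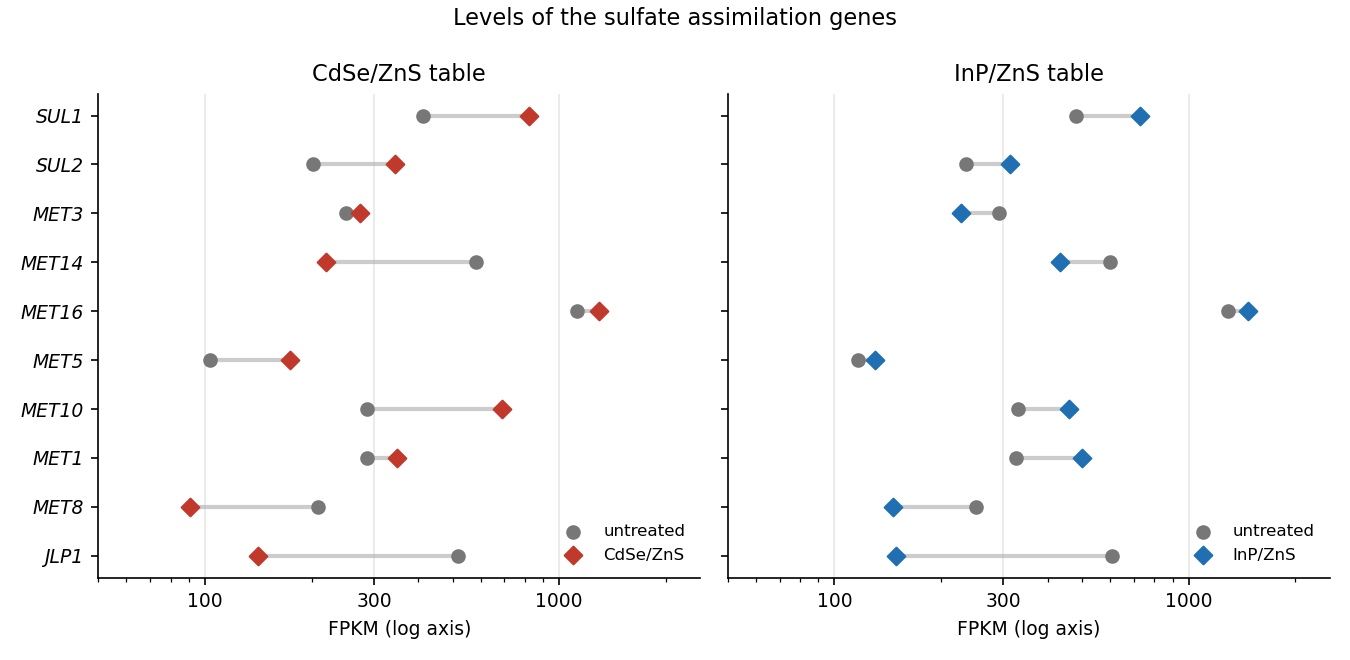
FPKM of each gene on a log axis in untreated cells (grey circles) and treated cells (coloured diamonds), in the CdSe/ZnS table (left) and the InP/ZnS table (right), with 1 pooled value per condition and no error. MET16 is highest in every condition; MET5 is lowest in untreated cells at 103 FPKM, and MET8 is lowest with CdSe/ZnS at 91.0 FPKM.

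In untreated cells the order of levels, from the highest, was MET16, MET14, JLP1, SUL1, MET1, MET10, MET3, MET8, SUL2 and MET5 in the CdSe/ZnS table. The InP/ZnS table had MET16 highest and MET5 lowest too, with JLP1 at 609 FPKM just above MET14 at 599 FPKM and MET10 at 330 just above MET1 at 325 in the authors' deposited tables. The pooled values carry no spread, so which neighbours in this order differ cannot be said. All 10 were well expressed: they lay above 70.6% to 96.6% of tested genes in untreated cells. Their summed FPKM was 3976 untreated and 4399 with CdSe/ZnS, and 4532 and 4554 in the InP/ZnS table. The sum over all tested genes was 1.51e+06 untreated and 1.05e+06 with CdSe/ZnS, and 1.76e+06 and 1.79e+06 in the InP/ZnS table.

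The change of the 10 genes with CdSe/ZnS went with their length. The genes that fell have coding sequences of 609 bp (MET14), 825 bp (MET8) and 1239 bp (JLP1), while those that rose have 2580 bp (SUL1), 2682 bp (SUL2), 3108 bp (MET10) and 4329 bp (MET5). The Spearman correlation of coding length and log2 fold change was 0.79 over the 10 genes and 0.34 over 5698 tested genes with CdSe/ZnS, and 0.53 and 0.11 (5739 genes) with InP/ZnS, as a description over genes that share libraries. The median of all genes at the length of MET14 was -0.63 with CdSe/ZnS, and at that of MET5 it was 0.13. With that trend removed the values were -1.48 for JLP1, -0.78 for MET14 and -0.73 for MET8, and 1.36 for MET10, 1.14 for SUL1 and 0.91 for SUL2. These 6 passed the normal test with the SE implied by the authors' statistic; MET5 at 0.62 did not (adjusted p = 0.0615) and MET16 at 0.69 did (adjusted p = 0.0370). Of the 5698 genes, 10.5% were higher and 12.2% lower in that test with CdSe/ZnS.

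**Figure D3:**
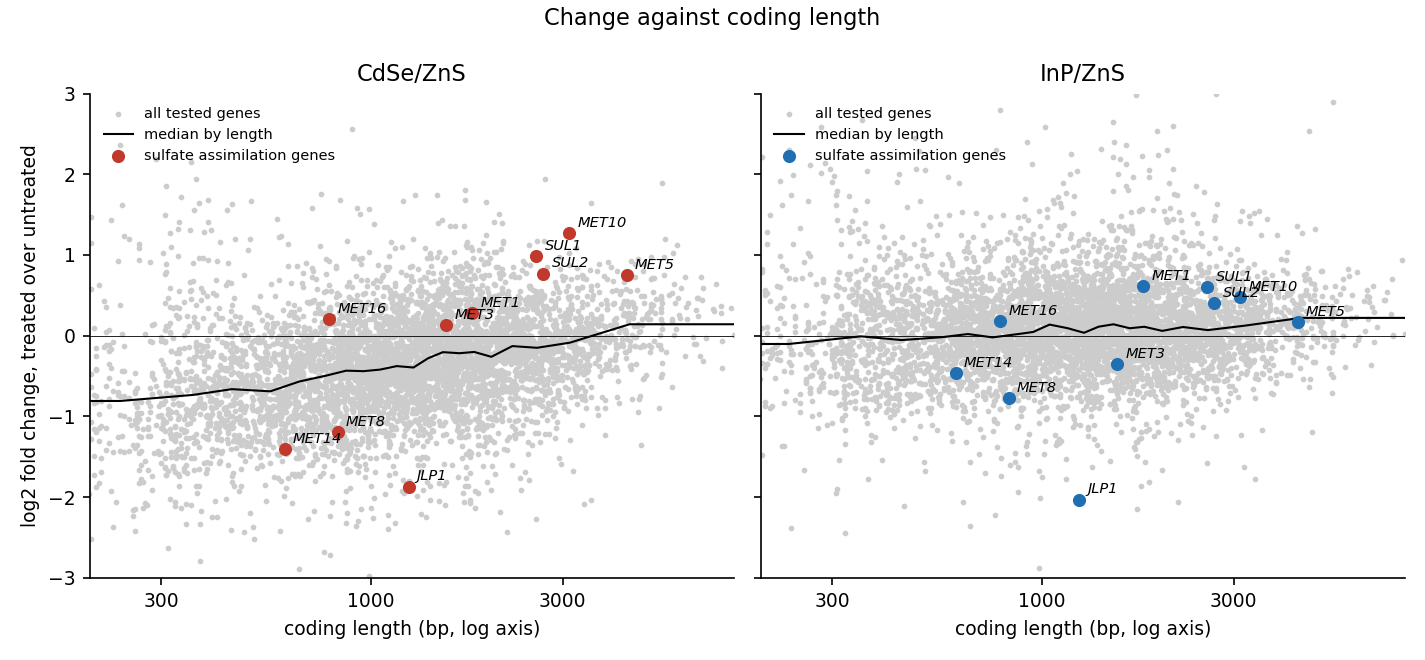
The log2 fold change (treated over untreated) is plotted against coding length in bp on a log axis for CdSe/ZnS (left) and InP/ZnS (right), with all tested genes in grey, their median by length as a line and the 10 genes coloured and named. With CdSe/ZnS the line rises from -0.63 at the length of MET14 to 0.13 at that of MET5, and SUL1, SUL2, MET10 and MET5 lie above it while MET14, MET8 and JLP1 lie below; the axes leave out genes beyond 3 log2 units or outside 200 to 8000 bp.

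The quantum dots were compared gene by gene as the difference of their log2 fold changes, CdSe/ZnS minus InP/ZnS. The doses differed, the untreated libraries are shared and the tables were normalised separately, so this compares these exposures only, and its SE is too large where the control varies. Of 6290 genes 12.3% differed, and of the 10 genes MET14 alone, by -0.94 (SE 0.33, adjusted p = 0.0426, normal test with SEs implied by the authors' statistics). Beside that result stand the untreated values of MET14, which were higher by 0.04 on the log2 scale in the InP/ZnS table than in the CdSe/ZnS table, when the 10 genes had a median of 0.21 and all genes had quartiles of 0.14 and 0.25; the part of this in the difference was not tested. MET10 differed by 0.79 (SE 0.38, 95% interval 0.04 to 1.55) and did not pass the same test on the authors' values (adjusted p = 0.163).

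With each fold change taken relative to its own median, 3.04% of all genes differed and of the 10 genes 0 did by the normal test; at an unadjusted p under 0.05 there were 5, all higher with CdSe/ZnS. With the SEs implied by the authors' statistics, MET14 then differed by -0.53 (adjusted p = 0.520) and MET10 by 1.20 (SE 0.38, adjusted p = 0.0547). The other differences as deposited did not pass either, and their 95% intervals were wide: that of JLP1 ran from -0.52 to 0.84, that of SUL1 from -0.37 to 1.14 and that of MET8 from -1.03 to 0.19. These intervals do not show that the quantum dots act alike on these genes.

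Of the regulators, MET32 rose with both quantum dots. With CdSe/ZnS 1 of 6 regulators rose and 4 fell, with a median of -0.47, against -0.35 for all genes; with InP/ZnS 2 rose and 0 fell, with a median of -0.04. Over all tested genes 9.59% rose and 43.6% fell with CdSe/ZnS; the shares with InP/ZnS were 23.9% and 17.2%. In the normal test relative to the median 1 regulator was higher and 0 lower with either quantum dot. Of all genes 11.9% were higher and 13.6% lower there with CdSe/ZnS, and 7.87% and 8.32% with InP/ZnS. With the length trend removed 1 regulator was higher and 1 lower with CdSe/ZnS, where 10.5% and 12.2% of all genes were. With InP/ZnS the counts were 1 and 0, where 8.57% and 9.1% of all genes were. At an unadjusted p under 0.05 relative to the median, 1 regulator was lower with CdSe/ZnS and 0 with InP/ZnS. MET32, for a zinc finger partner of Met4, went from 77.9 to 109 FPKM with CdSe/ZnS (log2 0.49, SE 0.25, q = 0.00260) and from 79.6 to 135 FPKM with InP/ZnS (log2 0.76, SE 0.24, q = 0.000252) in the authors' deposited tables. MET31, its close relative, fell from 63.1 to 38.0 FPKM with CdSe/ZnS (log2 -0.73, SE 0.26) and stood at -0.18 (q = 0.382) with InP/ZnS in the authors' deposited tables. The fall of MET31 did not pass relative to all genes (-0.38) and was -0.05 once the length trend was removed.

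MET4 itself went from 152 to 108 FPKM with CdSe/ZnS (log2 -0.49, q = 0.00519) and from 175 to 165 FPKM with InP/ZnS (log2 -0.08, q = 0.674) in the authors' deposited tables. CBF1 fell by 0.44 (log2) with CdSe/ZnS (q = 0.00925) and stood at -0.0028 with InP/ZnS (q = 0.990) in the authors' deposited tables. MET30, the F-box gene whose product marks Met4 with ubiquitin, fell by 0.78 with CdSe/ZnS (q = 0.000173) and stood at -0.28 (q = 0.103) with InP/ZnS in the authors' deposited tables. Relative to all genes, MET4, CBF1 and MET30 with CdSe/ZnS stood at -0.14, -0.09 and -0.43, and none of the 3 passed the normal test there; with the length trend removed MET30, at -0.54, did. MET28, a basic leucine zipper partner of Met4, shares a locus with another entry and is uncertain; it stood at 0.64 (SE 0.60, q = 0.310) with CdSe/ZnS and 0.89 (SE 0.61, q = 0.0459) with InP/ZnS in the authors' deposited tables.

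Downstream of sulfide, the genes of methionine and cysteine synthesis had 1 of 12 higher and 4 lower with CdSe/ZnS, and 1 higher and 1 lower with InP/ZnS. Their median with CdSe/ZnS was -0.29 as deposited and 0.06 relative to all genes; with InP/ZnS it was 0.02 as deposited. The shares of all genes with CdSe/ZnS were 9.59% higher and 43.6% lower; with InP/ZnS they were 23.9% and 17.2%. In the normal test relative to the median 2 were higher and 0 lower with CdSe/ZnS and 0 and 1 with InP/ZnS, so none of the 4 lower calls with CdSe/ZnS was kept. Of all genes that test had 11.9% higher and 13.6% lower with CdSe/ZnS, and 7.87% and 8.32% with InP/ZnS. At an unadjusted p under 0.05 it had 4 of the 12 genes higher and 0 lower with CdSe/ZnS, and 0 and 1 with InP/ZnS. CYS3, for the lyase that makes cysteine from cystathionine, fell with both, by 0.59 with CdSe/ZnS (q = 0.00132) and by 0.63 with InP/ZnS (q = 0.000252) (log2) in the authors' deposited tables. HOM2, of the route from aspartate to homoserine, and STR2, for cystathionine gamma-synthase, fell by 0.70 and 0.60 with CdSe/ZnS, per the authors' deposited table; relative to all genes they stood at -0.36 and -0.25. MET2, for homoserine acetyltransferase, shares a locus with another entry and stood at -0.48 with CdSe/ZnS (q = 0.0158) in the authors' deposited table. MET13, for a methylenetetrahydrofolate reductase, rose by 0.45 with InP/ZnS (q = 0.00755) in the authors' deposited table, a call not kept relative to all genes.

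The S-adenosylmethionine cycle, which turns methionine into the main methyl donor and recovers homocysteine, had 6 of 6 genes lower with CdSe/ZnS and 4 of 6 lower with InP/ZnS, with medians of -0.48 and -0.48. Relative to all genes these were -0.13 and -0.55, and in the normal test there 1 and 3 genes were lower. By the authors' q, 43.6% of all tested genes were lower with CdSe/ZnS and 17.2% with InP/ZnS; the normal test relative to the median had 13.6% and 8.32% lower. SAM2, an S-adenosylmethionine synthetase gene, went from 284 to 101 FPKM with CdSe/ZnS (log2 -1.49, SE 0.22, q = 0.000173) and from 336 to 184 FPKM with InP/ZnS (log2 -0.87, SE 0.24, q = 0.000252) in the authors' deposited tables. SAH1, for S-adenosylhomocysteine hydrolase, fell by 0.82 and ADO1, for adenosine kinase, by 0.59 (log2) with InP/ZnS in the authors' deposited table. SAM4 and MHT1, for homocysteine methyltransferases, fell by 0.83 and 0.54 and ADO1 by 0.42 with CdSe/ZnS, per the authors' deposited table. Relative to all genes SAM4, MHT1 and ADO1 with CdSe/ZnS stood at -0.48, -0.19 and -0.07 and did not pass. SAM1, the second synthetase gene, fell by 0.37 with InP/ZnS (q = 0.0204) in the authors' deposited table. SAM1 and SAM2 are close relatives in sequence, so their single values are uncertain.

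Genes that supply the pathway with electrons, heme precursors or relief from its by-product had 1 of 8 higher and 3 lower with CdSe/ZnS, and 1 higher and 0 lower with InP/ZnS. Their medians were -0.30, or 0.04 relative to all genes, and 0.05, or -0.01 relative to all genes. The shares of all genes were 9.59% higher and 43.6% lower, and 23.9% and 17.2%. In the normal test relative to the median 1 was higher and 2 lower with CdSe/ZnS, where 11.9% and 13.6% of all genes were. With InP/ZnS the counts were 0 and 0, where 7.87% and 8.32% of all genes were, and 0 had an unadjusted p under 0.05. With the length trend removed the 2 lower calls with CdSe/ZnS were lost, where 12.2% of all genes were lower. At an unadjusted p under 0.05 that test had 1 of the 8 genes lower. The thioredoxin genes TRX1 and TRX2, whose products give electrons to Met16, fell by 0.98 and 1.21 (log2) with CdSe/ZnS (q = 0.000173 for each) in the authors' deposited table. Their coding sequences are short, and with the length trend removed TRX1 stood at -0.21 (SE 0.24) and TRX2 at -0.46 (SE 0.22); neither passed. HEM3, of the heme pathway from which siroheme branches, rose by 0.42 (q = 0.0115) and HEM2, the step before it, fell by 0.37 (q = 0.0268), or -0.03 relative to all genes, with CdSe/ZnS, per the authors' deposited table. ZWF1, which supplies NADPH, rose from 900 to 1314 FPKM with InP/ZnS (log2 0.55, q = 0.00316) in the authors' deposited table, with an adjusted p of 0.179 in the normal test.

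Other sulfur transporters and sulfur source genes had 1 of 11 higher and 5 lower with CdSe/ZnS and 2 higher and 4 lower with InP/ZnS. Their medians were -0.19, or 0.16 relative to all genes, and 0.09, or 0.02 relative to all genes. With CdSe/ZnS 9.59% of all tested genes were higher and 43.6% lower; with InP/ZnS the shares were 23.9% and 17.2%. In the normal test relative to the median 1 was higher and 1 lower with each quantum dot, MMP1 and MUP1. Of all genes that test had 11.9% higher and 13.6% lower with CdSe/ZnS, and 7.87% and 8.32% with InP/ZnS. MUP1, the high-affinity methionine permease gene, fell with both, from 267 to 86.8 FPKM with CdSe/ZnS (log2 -1.62, SE 0.24) and from 322 to 129 FPKM with InP/ZnS (log2 -1.31, SE 0.24) in the authors' deposited tables. MMP1, the S-methylmethionine permease gene, rose with both, from 61.9 to 113 FPKM with CdSe/ZnS (log2 0.87, SE 0.22) and from 74.1 to 128 FPKM with InP/ZnS (log2 0.79, SE 0.23) in the authors' deposited tables. SOA1, a transporter gene for sulfonates and other sulfur compounds, and BDS1, a sulfatase gene, fell by 0.99 and 0.69 (log2) with CdSe/ZnS, per the authors' deposited table. OPT1, a glutathione and oligopeptide transporter gene, fell by 0.51 with InP/ZnS, and YCT1, a cysteine transporter gene, rose from 337 to 507 FPKM (log2 0.59), in the authors' deposited table. SOA1 and BDS1 with CdSe/ZnS and OPT1 and YCT1 with InP/ZnS did not pass the normal test relative to the median; with the length trend removed SOA1 did, at -0.77.

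**Figure D4:**
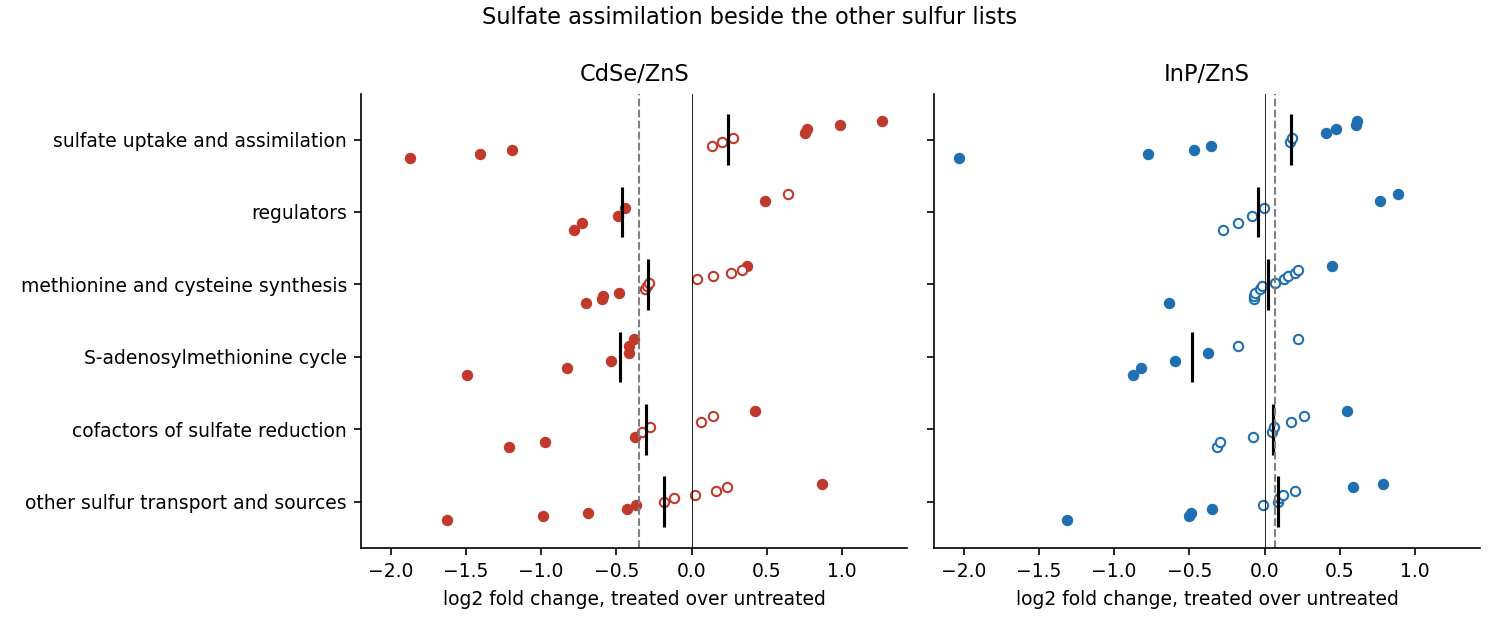
Each point is a gene and each row a list of sulfur genes, with the log2 fold change (treated over untreated) on the x axis for CdSe/ZnS (left) and InP/ZnS (right), filled where q was under 0.05, a black bar at the list's median and a dashed line at the median of all tested genes. The 10 sulfate genes reach from -1.87 to 1.27 with CdSe/ZnS, and the 6 genes of the S-adenosylmethionine cycle all lie left of 0 there.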

How the data were processed

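Poly(A) RNA was sequenced from 9 libraries in 3 groups, per the labels' protocols. Per the deposited text sheets, bases of quality under 20 were removed, 12 bases trimmed from the 5′ end, reads under 80 bp dropped, and the rest aligned with TopHat to the S288C genome from SGD; TopHat and Cuffdiff are in the submitters' processing notes, and versions, build, strand setting and library normalisation were not given in the sources used here. FPKM, the log2 fold change without a pseudocount, the test score and the p-value and q-value are those the authors deposited, 1 per gene and comparison, per the file headers. Many genes sit at the lowest p in a table, 5e-05 (1834 for CdSe/ZnS, 1266 for InP/ZnS). The treated column was read from the authors' lists of higher and lower genes, which matched the full tables. Coordinates start from 1 and equalled the RefSeq R64 annotation for 99% of 5245 entries alone at their locus.

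No test over samples, exact or by permutation, was possible without values per library. The implied standard error is the log2 fold change over the score. The normal tests, adjusted over all genes, used Python 3.11.15, numpy 2.4.6, pandas 2.3.3 and scipy 1.17.1, and were tested on simulated data; the trend with coding length came from medians of 20 length bins. Sequences were read with Biopython 1.88. The 10 genes, the 5 other lists and all tests were chosen with earlier results of these data known, and the tests of those lists relative to the median and with the length trend removed were added after their values were seen. All 10 genes and the regulators are named, and up to 4 genes per other list and comparison with q under 0.05, smallest q first, ties to the larger absolute log2 fold change. Depth per library is unknown.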

Additional observations from a re-analysis of the deposited data

Results flagged for a closer look

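MET14 was the gene of the 10 whose change differed between the quantum dots in the test of the difference itself: its log2 fold change with CdSe/ZnS was lower than that with InP/ZnS by 0.94 (a difference of -0.94, SE 0.33, adjusted p = 0.0426, normal test with SEs implied by the authors' statistics). Its log2 fold changes were -1.41 and -0.47. With the same SEs from the authors' statistics, relative to the median of all genes in each table, the difference was -0.53 (adjusted p = 0.520), and with the trend with coding length removed it was -0.31 (adjusted p = 0.787).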

How the results depend on the processing

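A floor of 1 or 10 FPKM and a pseudocount of 1 FPKM changed no call among the 10 genes, and q under 0.01 lost SUL2 and MET3 with InP/ZnS. With a log2 fold change of 1 or more in size required, 1 gene was higher and 3 lower with CdSe/ZnS, where 1.52% and 14.3% of all genes were, and 0 were higher and 1 lower with InP/ZnS, where 4.63% and 2.18% were. The normal test with InP/ZnS gave 0 higher and 2 lower as deposited, where 9.3% and 6.55% of all genes were. Relative to the median it gave 0 and 2, where 7.87% and 8.32% of all genes were. With the length trend removed it gave 0 and 2, where 8.57% and 9.1% of all genes were. By the authors' q the counts were 4 and 4, where 23.9% and 17.2% of all genes were. At an unadjusted p under 0.05 the test with the length trend removed had 0 higher and 3 lower. Of the 10 genes 1 differed between the quantum dots as deposited, where 12.3% of all genes did, and 0 at an adjusted p under 0.01. Relative to the medians 0 differed, where 3.04% of all genes did. With the length trend removed 0 differed, where 2.9% of all genes did, and 2 of the 10 genes had an unadjusted p under 0.05. Single genes lost 6 calls in the normal test as deposited, 6 relative to the median and 7 with the length trend removed, and gained 0, 1 and 1. No sign turned in a called value. No paired analysis was possible because the tables hold 1 pooled value per condition, and leaving out a replicate was not run for the same reason. All 10 genes lay far above the lowest levels, and their implied standard errors ran from 0.20 to 0.28. The part of depth in these errors was not tested.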

Other observations

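JLP1 lies in a row of genes on chromosome XII that were looked at after its values were seen. YLL058W, on one side (23569 to 25296), stood at 0.16 (q = 0.380) with CdSe/ZnS and 0.09 (q = 0.617) with InP/ZnS (log2) in the authors' deposited tables. YLL056C, on the other side (27409 to 28305), fell with both, from 173 to 95.0 FPKM with CdSe/ZnS (log2 -0.86, SE 0.21, q = 0.000173) and from 198 to 118 FPKM with InP/ZnS (log2 -0.74, SE 0.23, q = 0.000252) in the authors' deposited tables. Relative to all genes YLL056C stood at -0.52 with CdSe/ZnS and -0.81 with InP/ZnS. YCT1, a cysteine transporter gene beyond it (30109 to 31704), stood at -0.37 with CdSe/ZnS (q = 0.0400, -0.02 relative to all genes) and rose by 0.59 with InP/ZnS (q = 0.000252) in the authors' deposited tables.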
